A study of Homo sapiens with 4 samples.

Results

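Glucose is broken down to pyruvate by glycolysis, which yields ATP and NADH. Pyruvate is then reduced to lactate and exported, or enters the mitochondria and is oxidised to acetyl-CoA by the pyruvate dehydrogenase complex, whereas the pentose phosphate pathway leaves glycolysis at glucose 6-phosphate and supplies NADPH and ribose 5-phosphate. Keratinocytes of the epidermis are known to take up much glucose and to release much of it as lactate. The expression of 37 genes of these routes was examined, among 58735 genes in the deposited tables. They were taken by gene name from a list of enzymes and transporters, and encode glucose transporters, the enzymes from hexokinase to lactate dehydrogenase, lactate transporters, the pyruvate dehydrogenase complex with its kinases, and pentose phosphate enzymes.

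RNA-seq was performed on HaCaT cells (HaCAT in the sample labels), an immortalised human keratinocyte line, with 2 siControl and 2 siALKBH5 libraries. siControl cells were labelled WT and received a normal control siRNA, and siALKBH5 cells received siRNA against ALKBH5, an enzyme that removes the m6A mark from RNA. All cells were transfected with 200 pmol siRNA with a lipofectamine reagent, so that transfection was common to both groups. The labels name no siRNA sequence, no time after transfection and no separate culture for the second library of a group, so p-values measure the spread between these libraries, which may be technical.

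ALKBH5 itself was measured at 93.8 and 87.6 CPM in siControl and at 51.2 and 49.6 CPM in siALKBH5, where CPM are counts scaled to a common library size with TMM factors. Its log2 fold change was -0.85 (SE 0.053, edgeR quasi-likelihood test, adjusted p = 6.4e-15), which left 55.6% of the control level. Library totals lay between 16017502 and 18837807 counts, and 15075 genes passed the expression filter. The 10 keratinocyte markers, KRT5 and KRT14 among them, summed to between 32560 and 33604 CPM in every library. Of these markers 3 were called higher and 5 lower, against 19.3% and 17.3% of all genes tested. KRT5 rose by 0.68 on the log2 scale (adjusted p = 1.4e-27) and KRT15 fell by 0.48 (adjusted p = 3.4e-26). Markers of other cells were low: 18.7 to 22.8 CPM for 7 fibroblast genes with COL1A2, PDGFRA and PDGFRB at 0 counts, 11.9 to 14.2 CPM for 6 melanocyte genes with TYR and TYRP1 at 0, 2.67 to 4.28 CPM for 6 immune genes with none at 0, and 32.5 to 35.5 CPM for 5 endothelial genes with KDR at 0. Of these 24 genes, 8 were tested, and DCN (log2 -1.25, adjusted p = 0.00050), LUM (-1.08, 0.021) and CDH5 (-0.69, 5.0e-05) fell while VWF (0.51, 2.1e-05) and CD14 (0.64, 0.034) rose. With DESeq2, LUM and CD14 lost their calls (adjusted p of 0.11 and 0.16). Their part in the results for the 37 genes was not tested.

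Most genes of glucose breakdown were higher after ALKBH5 knockdown, by modest amounts. Of the 37 genes, 36 were tested, of which 23 rose and 1, RPE, fell at an adjusted p under 0.05. Among all genes tested, 19.3% were called higher and 17.3% lower. The median log2 fold change was 0.29 over the 36 genes and -0.0081 over all 15075. No gene of the 37 passed the study's pair of thresholds, which adds to the adjusted p under 0.05 a log2 fold change of 1 or more in size, with edgeR (0 genes, also at an unadjusted p under 0.05) or with DESeq2 (0 genes), against 2.92% of all genes tested with edgeR. At an unadjusted p under 0.05 alone, 24 of the 36 differed, the same genes as those called at the adjusted p. The share of all genes tested at the unadjusted threshold was not computed.

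Both siALKBH5 libraries lay above both siControl libraries for 25 of the 36 genes, and both lay below for 3, whereas the groups overlapped for the other 8. Among all genes tested, 32.8% lay above and 33.5% below in this way. Abundant genes are called more often at a given change, and 18 of the 36 had a mean of at least 100 CPM over the 4 libraries. Of these, 16 were called higher and their median log2 fold change was 0.33. Among the 1824 genes of all kinds at that level, 43.5% were called higher and 27.0% lower, with a median of 0.049. Summed over the 37 genes, TPM (counts per listed exon length, scaled to the same total in every library) were 6015 and 6037 in siControl and 7584 and 7599 in siALKBH5. The 37 genes thus took 0.603% of all TPM in siControl and 0.759% in siALKBH5, a ratio of 1.26. In bulk RNA, a change in the number of cells of a kind and a change in RNA per cell cannot be told apart.

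**Figure D1:**
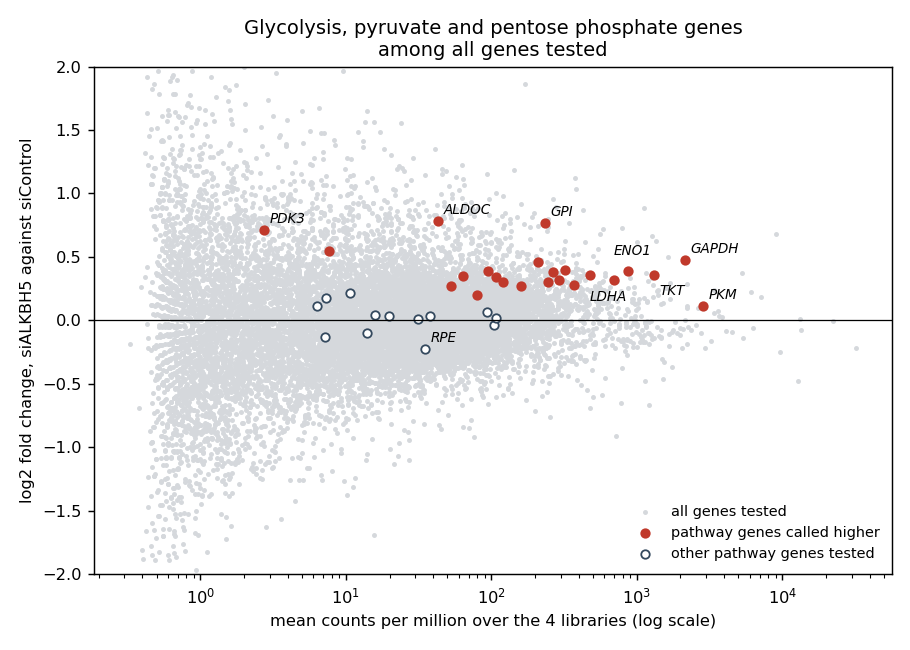
Log2 fold change of siALKBH5 against siControl (vertical axis) against the mean CPM over the 4 libraries (log scale) for all 15075 genes tested (grey), with pathway genes called higher filled red and the other pathway genes tested as open circles. The red points lie above 0 from the lowest level, that of PDK3, to the highest, that of PKM, and RPE is an open circle below 0. Another 57 genes lie outside the plotted range of 2 on the log2 scale.

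**Figure D2:**
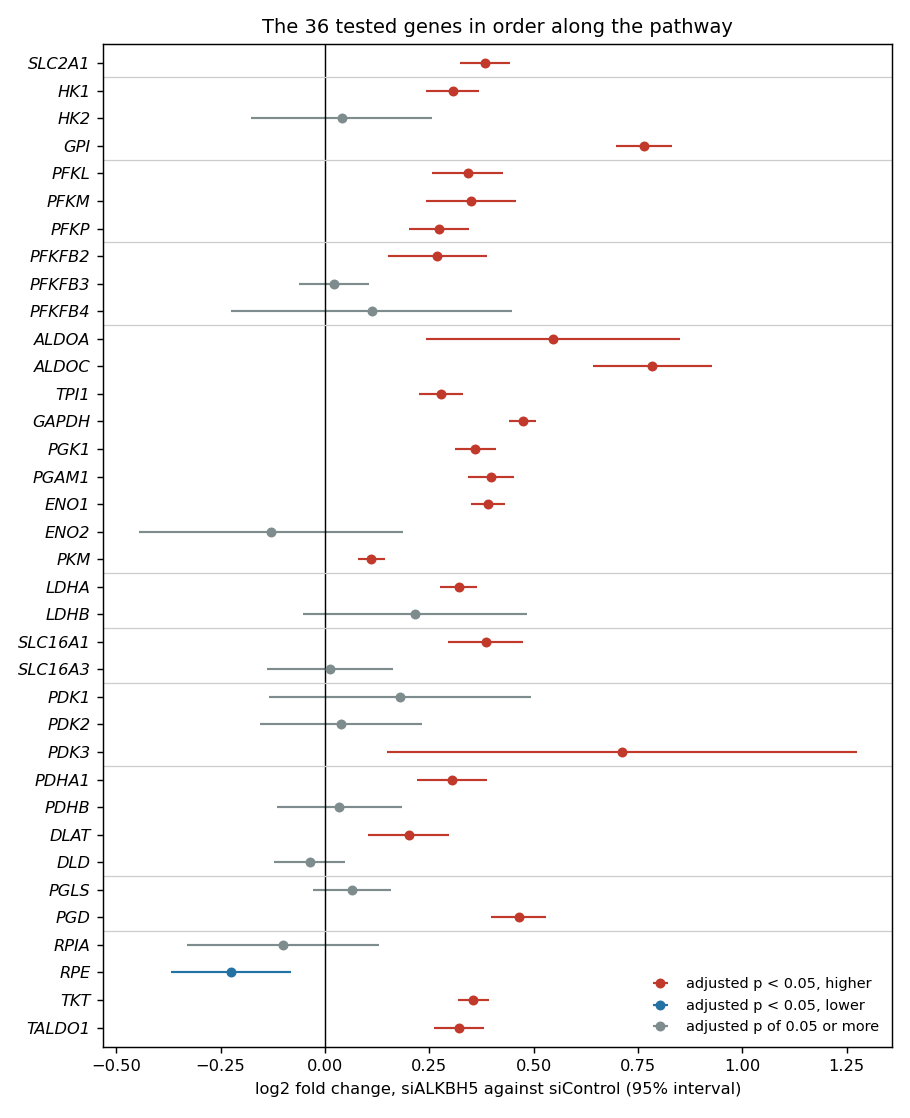
Log2 fold change with its 95% interval for the 36 tested genes, from glucose uptake at the top to the pentose phosphate pathway at the bottom, with lines between the steps. Of the 36 points, 23 are red (higher at an adjusted p under 0.05), RPE is blue (lower), and the 12 grey points have an adjusted p of 0.05 or more.

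The levels of the 37 genes per exon length covered a wide range in siControl. GAPDH (1757 ± 7.26 TPM, SD, n = 2) and PKM (933 ± 6.19 TPM) stood highest. ENO1 (415 ± 0.643 TPM) came next, ahead of TPI1 (359 ± 5.52 TPM) and TKT (352 ± 0.25 TPM). TPI1 and TKT differed by little more than the spread of TPI1. At the lower end, PDK1 (1.32 ± 0.148 TPM) and PDK3 (1.21 ± 0.0203 TPM) differed by less than the spread of PDK1. SLC2A3 was lowest at 0.0697 ± 0.0248 TPM. Listed lengths cover all annotated exons of a gene, 10680 bases for GPI for example, so the TPM of a gene with long exons that are rarely used is an underestimate.

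**Figure D3:**
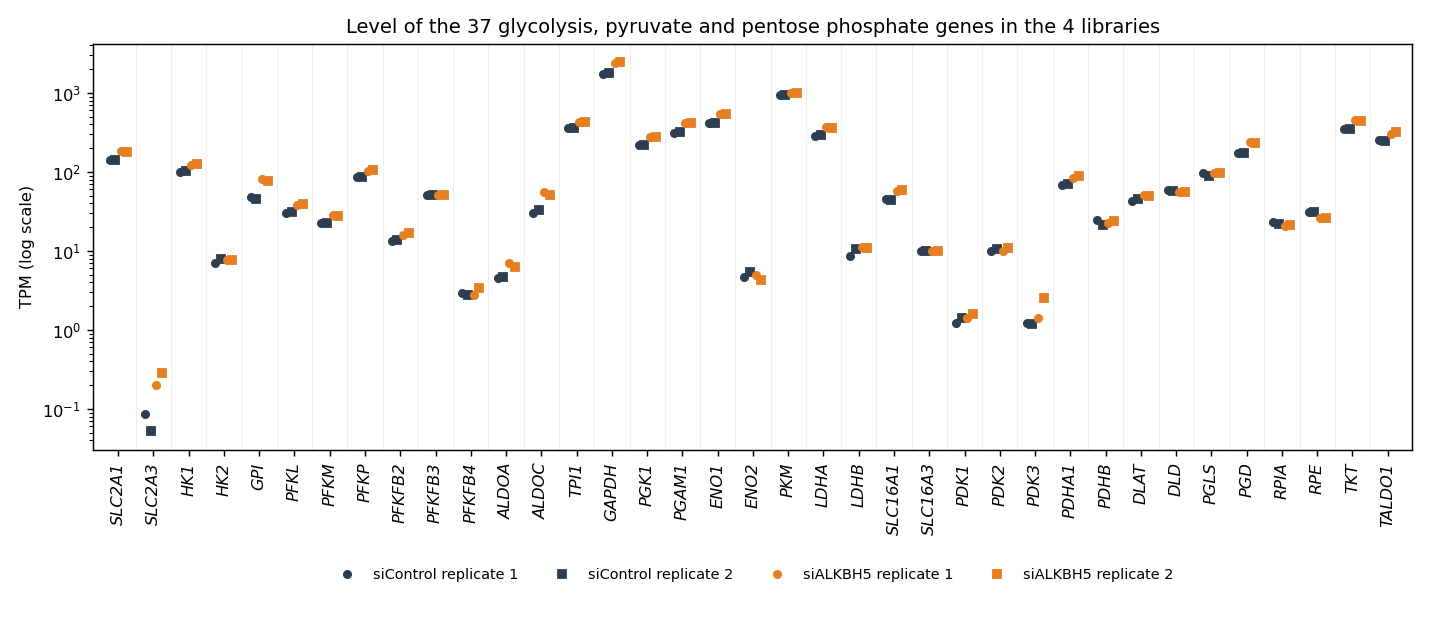
TPM on a log axis for each of the 37 genes, in pathway order, with siControl in dark blue and siALKBH5 in orange, and replicate 1 as circles and replicate 2 as squares. Libraries of a group nearly coincide for abundant genes, from PKM and GAPDH down to PFKM, and lie apart for SLC2A3, PDK3 and ENO2.

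Glycolytic genes are textbook targets of HIF and MYC factors, which can bind the letters CACGTG or the core ACGTG, so the promoters were searched for these letters. RefSeq promoters (GRCh38.p14, 250 bases before to 50 after a gene's start) were matched by symbol for 34 of the 37 genes, all but SLC2A3, PFKFB2 and SLC16A1, and both strands were searched. The motif CACGTG, which contains ACGTG, stood in 4 of the 34 promoters (11.8%), against 10.1% of the promoters of tested genes and 7.4% of all 27305 promoters. The core ACGTG, with those 4 promoters included, stood in 12 of the 34 (35.3%), against 26.5% and 21.6%. With the other form of the HIF core, GCGTG, searched as well, 22 of the 34 had a match (64.7%), against 62.8% and 48.4%. The share in the 34 was then close to that of the tested genes. The promoters with CACGTG were those of ALDOC, GAPDH, LDHA and PDHB, and the first 3 of these genes were called higher while PDHB was not. Of the 34 promoters, 21 belonged to genes called higher, so most had such a call with or without the motif. CACGTG stood in 3 of these 21 (14.3%) and in 1 of the other 13 (7.7%). A link between the motif and the change was not tested. All sites are shown with CACGTG in capitals, read 5′ to 3′ on the strand of the gene.
ALDOC at chr17:28577116-28577145, minus strand: aagtgcccggCACGTGgtaaagggattgtg
GAPDH at chr12:6535171-6535200, plus strand: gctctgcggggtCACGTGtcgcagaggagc
LDHA at chr11:18394366-18394395, plus strand: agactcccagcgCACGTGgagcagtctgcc
LDHA at chr11:18394464-18394493, plus strand: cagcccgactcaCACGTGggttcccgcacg
PDHB at chr3:58434051-58434080, minus strand: acaccgaccaggCACGTGtgcccagcgtgc
In the GENCODE 29 models, all 30 bases of the ALDOC window and of the second LDHA window lie in annotated exons of the gene, 8 bases of the first LDHA window do, the GAPDH window lies within the gene in an intron, and the PDHB window lies before the gene. A match is a description of the letters only, and binding was not measured.

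Among the glucose transporters, SLC2A1 (GLUT1), the main glucose carrier of keratinocytes, was measured at 232 and 230.3 CPM in siControl and at 305 and 299 CPM in siALKBH5. Both siALKBH5 libraries were higher, by 0.38 on the log2 scale (SE 0.029, adjusted p = 1.0e-12). SLC2A3 (GLUT3) was hardly expressed, with 3 and 2 counts in siControl against 8 and 10 in those of siALKBH5, and it did not pass the expression filter. Its 3 annotated pseudogenes held 43.5% as many counts as the gene, so that its counts are uncertain.

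Hexokinases trap glucose in the cell as glucose 6-phosphate. HK1, the isoform bound to mitochondria in most tissues, was measured at 216 and 222 CPM in siControl and at 266 and 276 CPM in siALKBH5, and rose by 0.31 (log2, SE 0.031, adjusted p = 7.6e-10). HK2, the inducible isoform of muscle and many tumours, was at 15.0 and 16.5 CPM in siControl and 16.0 and 16.4 CPM in siALKBH5. The groups overlapped for HK2, with a log2 difference of 0.040 and a 95% interval from -0.18 to 0.26 (adjusted p = 0.81). HK1 held 93.3% and 92.8% of the summed HK1 and HK2 TPM in siControl and 94.1% and 94.2% in siALKBH5. The share of HK2 was therefore lower in both siALKBH5 libraries, at 5.85% ± 0.0458 against 6.93% ± 0.336 (SD, n = 2), a difference that was not tested.

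GPI (ENSG00000105220, chr19:34359480-34402413), which interconverts glucose 6-phosphate and fructose 6-phosphate at the branch point with the pentose phosphate pathway, was measured at 178 and 169 CPM in siControl. In siALKBH5 it was at 301 and 288 CPM. The groups lay far apart relative to the distance between their libraries, and the log2 fold change was 0.76 (SE 0.033, adjusted p = 4.0e-19), or 1.70-fold. It was the most strongly changed of the 18 genes with a mean of at least 100 CPM.

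Phosphofructokinase commits fructose 6-phosphate to glycolysis, and each of its 3 subunit genes rose. PFKP, the platelet type, went from 145 CPM in each siControl library to 173 and 177 CPM in siALKBH5 (log2 0.27, SE 0.035, adjusted p = 1.4e-07). PFKL, the liver type, went from 94.3 and 94.9 CPM to 118 and 122 CPM (log2 0.34, SE 0.042, adjusted p = 4.9e-08). The muscle type PFKM went from 57.0 and 56.5 CPM to 73.6 and 70.9 CPM (log2 0.35, SE 0.053, adjusted p = 2.2e-06). No subunit overlapped between the groups, and PFKP made up 62.0% ± 0.0629 of their summed TPM in siControl and 60.9% ± 0.3 in siALKBH5 (SD, n = 2).

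The PFKFB enzymes make and degrade fructose 2,6-bisphosphate, the main activator of phosphofructokinase, and 1 of the 3 measured rose. PFKFB2 was at 47.4 and 49.1 CPM in siControl and at 57.2 and 59.2 CPM in siALKBH5 (log2 0.27, SE 0.058, adjusted p = 0.00040). PFKFB3, the form with the strongest kinase activity, was at 107 and 108 CPM in siControl and at 109.8 and 108 CPM in siALKBH5. Its log2 difference was 0.021 with a 95% interval from -0.062 to 0.10 (adjusted p = 0.73), and the siControl libraries lay just below both siALKBH5 libraries. PFKFB4 had 101 to 120 counts in every library and overlapped between the groups (log2 0.11, interval -0.22 to 0.45, adjusted p = 0.64). PFKFB3 held most of the family's TPM, 75.4% ± 0.13 in siControl and 72.4% ± 1.11 in siALKBH5, while PFKFB2 held 20.3% ± 0.348 and 23.2% ± 0.474, and neither share overlapped between the groups.

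Aldolase splits fructose 1,6-bisphosphate into 2 triose phosphates. ALDOC (ENSG00000109107, chr17:28573115-28577264), the form known from brain, was measured at 30.3 and 33.2 CPM in siControl and at 57.6 and 51.7 CPM in siALKBH5. With a log2 fold change of 0.78 (SE 0.070, adjusted p = 4.9e-11), or 1.72-fold, it had the largest fitted fold change of the 36 genes tested. ALDOA, the form of muscle and most other tissues, was listed with 99 and 114 counts in siControl against 180 and 141 in those of siALKBH5 (log2 0.55, SE 0.15, adjusted p = 0.0040). These counts are uncertain. Of the coding bases of ALDOA, 93.8% also belong to exons of overlapping annotated genes, chiefly the protein-coding AC093512.2 on the same strand, and how reads shared by 2 genes were counted is not given in the sources used here. AC093512.2 itself had 22 to 39 counts per library. The share of ALDOC in aldolase TPM, 87.2% ± 0.479 in siControl and 88.9% ± 0.0733 in siALKBH5, is uncertain for the same reason.

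The enzymes from triose phosphates to pyruvate form the part of glycolysis that yields ATP, and their main genes rose together. TPI1, which interconverts the triose phosphates, was at 340.0 and 332 CPM in siControl and at 407 and 408 CPM in siALKBH5 (log2 0.28, SE 0.026, adjusted p = 1.6e-10). GAPDH, which oxidises glyceraldehyde 3-phosphate and is often used as a reference gene, was at 1811 and 1818 CPM in siControl and at 2508 and 2531 CPM in siALKBH5. Its log2 fold change was 0.47 (SE 0.016, adjusted p = 6.9e-22). Of 62 annotated GAPDH pseudogenes, 13 had a count, and together they held 0.433% as many counts as the gene.

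PGK1, which makes the first ATP of the route, was at 417 and 421 CPM in siControl and at 536 and 538 CPM in siALKBH5 (log2 0.36, SE 0.024, adjusted p = 3.5e-14). PGAM1, the mutase of 3-phosphoglycerate, went from 277 and 284 CPM to 367 and 371 CPM (log2 0.40, SE 0.027, adjusted p = 9.1e-14). ENO1, the enolase of most tissues, went from 761 and 757 CPM to 995 CPM in each siALKBH5 library (log2 0.39, SE 0.020, adjusted p = 5.1e-17). In all of these genes the libraries of a group lay within a few percent of each other and the groups were clearly apart. ENO2, the neuronal enolase, had between 105 and 145 counts in every library and overlapped between the groups (log2 -0.13, interval -0.45 to 0.19, adjusted p = 0.56). The share of ENO2 in enolase TPM was 1.204% ± 0.128 in siControl and 0.842% ± 0.0822 in siALKBH5.

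PKM, which makes pyruvate and the second ATP, had the highest CPM of the 37 genes, at 2760.3 and 2780.4 in siControl and 2985 and 3001 in siALKBH5. It rose by 0.11 on the log2 scale (SE 0.015, 95% interval 0.080 to 0.14, adjusted p = 4.6e-07), which was the smallest change among the 23 genes called higher. Its interval did not reach that of GAPDH, from 0.44 to 0.51, or of ENO1, from 0.35 to 0.43, and the difference between these genes was not itself tested. Gene counts do not separate its M1 and M2 splice forms.

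Lactate dehydrogenase reduces pyruvate to lactate. LDHA, its muscle subunit, was measured at 619.6 and 635 CPM in siControl and at 791 and 776 CPM in siALKBH5, and rose by 0.32 (log2, SE 0.022, adjusted p = 8.7e-14). LDHB, the heart subunit, was listed with 143 and 197 counts in siControl against 219 and 187 in those of siALKBH5, and did not pass the test (log2 0.22, interval -0.053 to 0.48, adjusted p = 0.21). Its counts are uncertain as well, since 93.5% of its coding bases lie in exons of another annotated gene, AC010197.2, which had 1 count in all 4 libraries together. Lactate leaves the cell through monocarboxylate transporters. SLC16A1 (MCT1) was at 83.2 and 81.9 CPM in siControl and at 105 and 111 CPM in siALKBH5 (log2 0.39, SE 0.044, adjusted p = 1.4e-08). SLC16A3 (MCT4), the form known for lactate export from glycolytic cells, was at 31.3 and 31.0 CPM in siControl and at 31.3 and 31.5 CPM in siALKBH5, with a log2 difference of 0.012 and an interval from -0.14 to 0.16 (adjusted p = 0.92). The share of SLC16A3 in their summed TPM was 18.2% ± 0.076 in siControl and 14.7% ± 0.366 in siALKBH5, with no overlap.

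**Figure D4:**
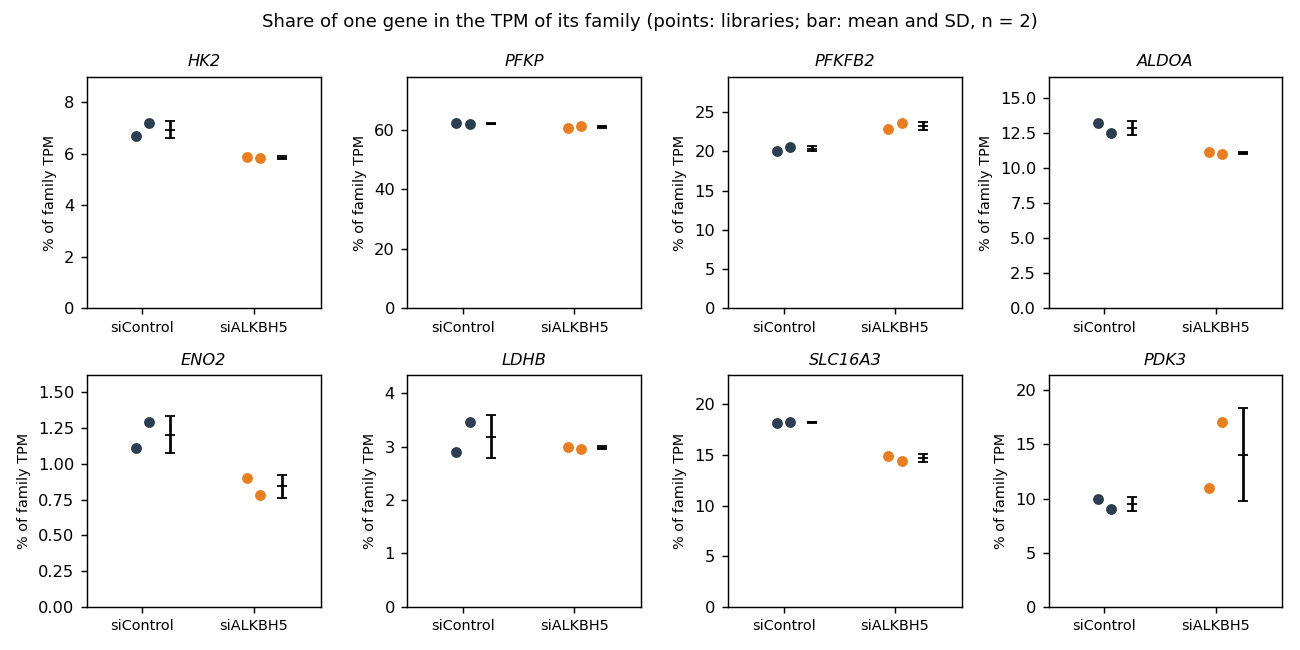
Share of a gene in the summed TPM of its family, in percent, for HK2, PFKP, PFKFB2, ALDOA, ENO2, LDHB, SLC16A3 and PDK3, with siControl libraries in dark blue, siALKBH5 libraries in orange, and the mean with SD (n = 2) as a bar beside them. The shares of HK2, ENO2 and SLC16A3 are lower and that of PFKFB2 is higher in both siALKBH5 libraries, whereas LDHB overlaps, and the PDK3 libraries of siALKBH5 lie at 11.02% and 17.1%.

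Pyruvate dehydrogenase kinases switch off the complex that turns pyruvate into acetyl-CoA, and the 3 among the 37 genes were low. PDK4, another kinase of this family, is not among the 37. It was at 3.04 and 6.61 CPM in siControl and at 5.57 and 4.19 CPM in siALKBH5 (log2 0.0051, adjusted p = 0.99). PDK2 was at 18.7 and 20.2 CPM in siControl and at 19.3 and 20.8 CPM in siALKBH5, which overlap (log2 0.038, interval -0.16 to 0.23, adjusted p = 0.80). PDK1 was at 6.27 and 7.34 CPM in siControl and at 7.28 and 8.20 CPM in siALKBH5, which overlap (log2 0.18, interval -0.14 to 0.49, adjusted p = 0.39). PDK3 had 34 and 37 counts in the siControl libraries against 46 and 73 in those of siALKBH5, and was called higher (log2 0.71, SE 0.28, adjusted p = 0.042). The siALKBH5 libraries of PDK3 differed more from each other than the lower of them did from siControl. Without siALKBH5 replicate 2 its log2 fold change was 0.24 (adjusted p = 0.66), without siALKBH5 replicate 1 it was 1.09, and DESeq2 gave an adjusted p of 0.16. Exons of genes on the opposite strand covered 38.6% of the exon bases of PDK2, and whether the counting used strand is not given in the sources used here.

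The pyruvate dehydrogenase complex carries pyruvate carbon into the mitochondrial cycle, and 2 of its 4 genes rose. PDHA1, the alpha subunit of its first enzyme, was at 107 and 109.6 CPM in siControl and at 130.4 and 138 CPM in siALKBH5 (log2 0.30, SE 0.041, adjusted p = 2.7e-07). Of its exon bases, 21.3% were covered on the opposite strand. DLAT, the acetyltransferase core, went from 72.4 and 75.4 CPM to 86.4 and 83.3 CPM (log2 0.20, SE 0.048, adjusted p = 0.0011). PDHB, the partner of PDHA1 in the same enzyme, was at 40.2 and 35.1 CPM in siControl and at 37.1 and 40.0 CPM in siALKBH5, and the groups overlapped (log2 0.034, interval -0.12 to 0.18, adjusted p = 0.76). DLD, which the complex shares with other dehydrogenases, was at 108 and 104 CPM in siControl and at 104 and 103 CPM in siALKBH5 (log2 -0.037, interval -0.12 to 0.049, adjusted p = 0.54). The intervals of PDHA1 and PDHB did not overlap, and their difference was not itself tested.

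The pentose phosphate pathway was not uniform. In the oxidative branch, which makes NADPH, PGD was at 177 CPM in each siControl library and at 248 and 240.0 CPM in siALKBH5. PGD (ENSG00000142657, chr1:10398592-10420144) thus rose by 0.46 on the log2 scale (SE 0.032, adjusted p = 1.0e-13), or 1.38-fold. PGLS, the lactonase just before it, was at 95.5 and 87.5 CPM in siControl and 94.98 and 96.2 CPM in siALKBH5, which overlap (log2 0.065, interval -0.029 to 0.16, adjusted p = 0.29).

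In the non-oxidative branch, which links pentoses back to glycolysis, the enzymes that exchange carbon units rose and the enzymes that interconvert pentose phosphates did not. TKT, transketolase, was at 1161 and 1157 CPM in siControl and at 1492 and 1475 CPM in siALKBH5 (log2 0.36, SE 0.018, adjusted p = 4.6e-17). TALDO1, transaldolase, went from 263 and 257 CPM to 317 and 332 CPM (log2 0.32, SE 0.029, adjusted p = 9.6e-11). RPIA, which makes ribose 5-phosphate, was at 14.7 and 14.2 CPM in siControl and 13.4 and 13.6 CPM in siALKBH5, and did not pass the test (log2 -0.10, interval -0.33 to 0.13, adjusted p = 0.53). RPE (ENSG00000197713, chr2:210002565-210022259), the epimerase that makes xylulose 5-phosphate, was at 37.7 CPM in each siControl library and at 32.2 and 32.3 CPM in siALKBH5. It fell by 0.23 on the log2 scale (SE 0.071, adjusted p = 0.012), to 85.5% of the control level. This call was lost with DESeq2 (adjusted p = 0.087) and without siControl replicate 1, siControl replicate 2 or siALKBH5 replicate 1 (adjusted p of 0.052, 0.052 and 0.058), with the fold change between -0.22 and -0.23 in each of these. Of the exon bases of RPE, 23.8% were covered by genes on the opposite strand.

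By step, the summed TPM of the 9 genes from aldolase to pyruvate kinase went from 4040 ± 17.9 in siControl to 5151 ± 11.1 in siALKBH5 (SD, n = 2), a ratio of 1.28. Those of the hexokinases with GPI had a ratio of 1.36, the glucose transporters 1.30, phosphofructokinase 1.22, lactate dehydrogenase 1.24, the monocarboxylate transporters 1.24, and the oxidative and non-oxidative pentose phosphate branches 1.25 and 1.23. Ratios were lower for the PFKFB regulators, at 1.05, the pyruvate dehydrogenase kinases, at 1.09, and the pyruvate dehydrogenase complex, at 1.11.

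Other genes of the same routes, listed separately, moved less uniformly. Of 59 such genes, 34 were tested, of which 12 rose and 3 fell, with a median log2 fold change of 0.13. These were 35.3% and 8.82% of the 34, against 19.3% and 17.3% of all genes tested. In every library 10 of the 59 had 0 counts, among them the tissue-restricted PGK2, PKLR, LDHC and TKTL1. PC, pyruvate carboxylase, which makes oxaloacetate from pyruvate, had 210 and 192 counts in siControl against 559 and 464 in those of siALKBH5. It rose by 1.30 on the log2 scale (SE 0.10, adjusted p = 1.8e-12) and was the only gene of this list past both thresholds. LDHD, a mitochondrial D-lactate dehydrogenase, rose by 0.88 (adjusted p = 4.3e-09), and BSG, the chaperone of the monocarboxylate transporters, by 0.14 (adjusted p = 6.2e-06). The 3 lower genes were SLC2A8, an intracellular sugar transporter (log2 -0.45, adjusted p = 2.5e-05), DERA, a deoxyribose phosphate aldolase (log2 -0.27, adjusted p = 0.00074), and PGM2, a phosphopentomutase (log2 -0.22, adjusted p = 0.0058). Without siControl replicate 2, 1 of this list was called lower instead of 3.

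Downstream, 14 of 20 genes of the tricarboxylic acid cycle rose and 1 fell, with a median of 0.14 on the log2 scale. These were 70% and 5% of the list, against 19.3% called higher and 17.3% lower among all genes tested. Among genes with a mean of at least 100 CPM, 43.5% were called higher and 27.0% lower. CS, the citrate synthase that starts the cycle, rose by 0.40 (adjusted p = 1.5e-11) and MDH2, mitochondrial malate dehydrogenase, by 0.42 (adjusted p = 2.0e-13).

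Of 8 genes for transcription factors known to act on glycolysis, 1 rose and 2 fell, against 19.3% called higher and 17.3% called lower among all genes tested. MLXIP, a glucose-sensing factor, rose by 0.16 (adjusted p = 0.00049), whereas ARNT, the partner of HIF1A, fell by 0.24 (adjusted p = 2.5e-05) and ESRRA by 0.22 on the log2 scale (adjusted p = 7.4e-07). HIF1A and MYC did not pass the test, with log2 fold changes of 0.064 and 0.078 (adjusted p of 0.25 and 0.37). Known hypoxia targets outside glycolysis were split: of 24, 8 rose and 8 fell, or 33.3% each way, against 19.3% and 17.3% of all genes tested. Their median log2 fold change was 0.092. Their summed level was 1600.5 and 1607 CPM in siControl and 1444.5 and 1417.5 CPM in siALKBH5. In that sum, DDIT4 went from a mean of 556 CPM in siControl to 423 CPM in siALKBH5. Among the 24, P4HA2, a collagen hydroxylase, rose by 0.34 (adjusted p = 5.3e-06), VEGFA by 0.23 (adjusted p = 0.0077) and NDRG1 by 0.11 (adjusted p = 0.0035). DDIT4, EGLN1, KDM3A and ADM fell by 0.39, 0.57, 0.44 and 0.40 on the log2 scale (adjusted p of 8.7e-15, 6.5e-10, 1.7e-08 and 2.8e-06).

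Genes of proliferating cells moved with the glycolytic genes. Of 20 such genes, 19 rose, with a median of 0.80 on the log2 scale, and their summed level went from 1638.6 and 1645.2 CPM to 2717.2 and 2696.5 CPM. Among all genes tested 19.3% were called higher, and 43.5% of those with a mean of at least 100 CPM. The mitochondrial genome took 10.2% of counts in each siControl library and 9.63% and 9.64% in the siALKBH5 libraries. The part of either in the change of the glycolytic genes was not tested.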

How the data were processed

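The authors enriched poly-A RNA of HaCaT cells and sequenced it on an Illumina NovaSeq platform. Tools named in the submitters' processing notes are CASAVA, HISAT2 2.0.5, featureCounts 1.5.0-p3 and DESeq2 1.20.0, on hg38. The authors deposited raw counts per gene, without normalization, and FPKM (fragments per kilobase of listed length, relative to library size), 1 table per replicate. The deposited FPKM were not compared, since each table was scaled on its own. Deposited columns of fold changes and p-values of 1 library against 1 were not used. Start and end of 58724 of 58735 genes are those of GENCODE 29.

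The 4 libraries entered a single fit of edgeR 4.0.16 under R 4.3.3, with its expression filter, TMM scaling and quasi-likelihood test without covariates, and Benjamini-Hochberg adjustment ran over 15075 genes. Calls used an adjusted p under 0.05. The biological coefficient of variation was 0.0253, and duplicates differed by more than sampling noise (chi-square per gene 1.73 in siControl and 1.85 in siALKBH5). With 2 against 2 libraries the smallest two-sided exact permutation p is 0.333, so single values such as shares were given without a test. CPM in the text used TMM-scaled library sizes, and TPM and shares used counts and listed lengths. Totals of 16017502 to 18837807 counts limit genes with few counts, and intervals rest on the spread estimated by edgeR across genes. Alternatives were DESeq2 1.42.0, other scalings and filters, limma 3.58.1 on FPKM recomputed from the counts with pseudocounts of 1 and 0.1, a replicate block, and leaving out each of the libraries. The edgeR fits with and without the replicate block, DESeq2 and limma were tested on simulated counts. The promoter, exon overlap, pseudogene, share and leave-one-out steps were not. The 37 genes and the other lists were chosen with earlier results of these data known. All of the 37 genes and ALKBH5 are named, and of the other lists up to 4 genes called higher and 4 called lower with the smallest adjusted p. MYC, HIF1A, PDK4 and genes named at 0 counts or as overlapping genes were named after their values were seen.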

Additional observations from a re-analysis of the deposited data

How the results depend on the processing

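Between 22 and 23 of the genes were called higher under every alternative, the 22 of DESeq2 all being among the 23. The median log2 fold change lay between 0.26 and 0.32, and was not computed for the limma alternatives. Without ALDOA and LDHB, chosen after seeing the data, 22 were higher and 1 lower. No genes were called lower with DESeq2 (0, RPE having an adjusted p of 0.087), and 0 to 1 when each library was left out. Past both thresholds there were 0 to 1 with a library left out, the 1 being PDK3 without siALKBH5 replicate 1. Of the other pathway genes, 1 to 4 were called lower with a library left out, against 3. ALDOA lost its call without siALKBH5 replicate 1 (log2 0.46, adjusted p = 0.054), and PDK3 with library size only (adjusted p = 0.054) and without siControl replicate 1 or 2 (0.076 and 0.10).

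With library size only, the sign turned for PFKFB3 (-0.00095) and SLC16A3 (-0.010). With a library left out it turned for HK2 (-0.024 to 0.11), PFKFB4 (-0.042 to 0.27), PDK2 (-0.012 to 0.095) and PDHB (-0.064 to 0.13), none of them called. The differences in family share likewise turned for PFKFB4 (-0.344 to 0.561 percentage points), LDHA (-0.0817 to 0.488), LDHB (-0.488 to 0.0817) and PDK1 (-0.0365 to 0.811). Shares from counts without length differed more for PFKFB2 (3.67) and SLC16A1 (4.84).

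Number 2 was given to the library of each group titled replicate, and the labels do not say whether same-numbered libraries are pairs. Over all genes tested, the deviations of same-numbered libraries had a correlation of 0.0337. This cannot exclude pairing, because sampling noise lowers such a correlation. Among all genes tested, the replicate block gave 3091 called higher and 2831 lower, against 2913 and 2610 without it. Of the 37 genes, 23 were called higher and 1 lower with the replicate block, and no call on them changed. The causes of these changes were not tested. Depth limits PDK1, PDK3, PFKFB4, ENO2, ALDOA and LDHB, with under 220 counts per library, and leaves SLC2A3 untested.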
